A study of Homo sapiens with 2 samples.

Results

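The activator protein 1 (AP-1) transcription factors were examined in H322c cells, an established NSCLC cell line, cultured for 4 days with 1 µM gefitinib or with 0.1% DMSO as the control. Gefitinib is a small molecule that blocks the kinase of the EGF receptor, and both cultures were plated 24 hrs before the drug or the vehicle was added, in RPMI medium with serum. The group held 10 genes of the 19775 that the array names: the Fos proteins FOS, FOSB, FOSL1 and FOSL2, the Jun proteins JUN, JUNB and JUND, and the related factors JDP2, BATF and MAFF. Total RNA of each culture was read on 1 Affymetrix U133 Plus 2.0 array, and the members had 22 of the 54675 probe sets, the groups of short oligonucleotides with which the array measures a transcript. All 22 were paired with a single gene. Since there was 1 array per condition, no test was possible, every difference describes these 2 arrays, and their number limits the precision. The members were selected on family membership with their log2 ratios of gefitinib over DMSO already known, that of JDP2 above all, so the values below are a description. RNA was taken from whole cultures, so less transcript in each cell and fewer cells with the transcript cannot be told apart.

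AP-1 is a dimer of basic leucine zipper (bZIP) proteins. Jun proteins pair with each other or with a Fos protein, whereas Fos proteins need a partner, and the dimers bind the sequence TGANTCA or the related cyclic AMP response element TGACGTCA. FOS, FOSB and JUN are immediate early genes that growth factor receptors switch on through the ERK and JNK kinases, and FOSL1 and FOSL2 follow with a delay and are known to take part in epithelial proliferation, migration and differentiation. JDP2 pairs with Jun proteins and represses AP-1 targets, BATF lacks an activation domain and is best known from lymphocytes, and MAFF is a small Maf protein that also lacks one and pairs with other bZIP factors.

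The promoters of these genes are shown for the short elements that they carry. RefSeq promoter windows of build GRCh38.p14, from 250 bases before to 50 bases after a start site, were available for 9 members in 12 windows, with several start sites for JDP2 and MAFF. FOSL1 was not among them. The bases from position -120 to -1 before the start are given 5′ to 3′ on the strand of the gene, for FOS at chr14:75278708-75278827 on the plus strand, FOSB at chr19:45467876-45467995 (plus), FOSL2 at chr2:28392738-28392857 (plus), JUN at chr1:58784048-58784167 (minus), the second JDP2 start at chr14:75427902-75428021 (plus) and the first MAFF start at chr22:38201874-38201993 (plus). Capitals mark TGACGT, which opens the cyclic AMP response element, or its variant TGACNTCA.
FOS: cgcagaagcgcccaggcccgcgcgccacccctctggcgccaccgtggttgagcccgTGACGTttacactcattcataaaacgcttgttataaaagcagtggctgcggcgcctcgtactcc
FOSB: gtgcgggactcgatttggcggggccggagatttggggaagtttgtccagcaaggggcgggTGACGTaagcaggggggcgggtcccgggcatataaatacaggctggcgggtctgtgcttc
JUN: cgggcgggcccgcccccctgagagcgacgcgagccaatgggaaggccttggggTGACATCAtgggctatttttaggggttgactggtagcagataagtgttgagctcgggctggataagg
MAFF: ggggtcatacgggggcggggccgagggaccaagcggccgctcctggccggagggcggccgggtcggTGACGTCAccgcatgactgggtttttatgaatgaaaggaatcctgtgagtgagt
FOSL2: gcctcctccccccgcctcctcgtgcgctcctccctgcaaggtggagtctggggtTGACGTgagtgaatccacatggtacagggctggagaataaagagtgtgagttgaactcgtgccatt
JDP2: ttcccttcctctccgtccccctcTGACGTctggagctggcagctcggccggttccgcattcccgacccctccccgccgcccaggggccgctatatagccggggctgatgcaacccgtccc
The letters TGACGT, on either strand, were found in 6 of the 12 windows, those of FOS, FOSB, FOSL2, JUND, MAFF and the second start of JDP2, and in 7.98% of 35116 promoter windows of the same length. This motif was searched after the sequences had been read, so the share of all windows stands only for reference. TGACGT lay from position -64 to -59 in FOS and from -60 to -55 in FOSB, which were lower with gefitinib. In FOSL2 and JDP2, which were higher, it lay from -66 to -61 and from -97 to -92. The other JDP2 windows held no match, and which start gives the transcript read on the array was not tested. Any part of the element in either direction was not tested. The full palindrome TGACGTCA, which contains TGACGT on both strands, was found in MAFF and JUND (1.85% of all windows), and JUN had TGACATCA from -67 to -60, a match of TGACNTCA (7.72%). The AP-1 element TGANTCA was found only in the FOSL2 window among the 12, as TGACTCA from base 5 to base 11 after the start, against 7.71% of all windows. The TATAAA box lay from -33 to -28 in FOS, from -30 to -25 in FOSB and from -31 to -26 in JUNB (11.5% of all windows), and the CArG box, the site of serum response factor, was in none of the 12 windows (1.29%). A match describes letters in these windows and not binding. Elements more than 250 bases before a start were not searched, so a motif missing here can lie farther upstream.

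The deposited values were signals of the MAS5 program on a linear scale, with a 2% trimmed mean of 500.1 on both arrays. Signals under 100 were set to 100, a floor below which 61.6% of all probe sets lay with DMSO and 60.4% with gefitinib. Genes with at least 1 signal of 100 or more counted as measured (11223 genes), the brightest probe set over both arrays stood for the gene, and a fold with 1 signal under the floor is a lower bound, written as at least N-fold. There being no replicates, the log2 ratios of probe sets for the same gene were compared, and these varied with an SD of 0.54 (4610 genes). The variation between cultures is not covered by this SD. The median log2 ratio of all measured genes was 0.12, and was -0.07 with scaling to spike-in controls and 0.28 with scaling to GAPDH. Of the genes past 2-fold, 68.2% were higher, against 50.5% with spike-in scaling, 57.4% with lowess correction and 80.4% with GAPDH scaling. The 8 epithelial markers were all measured and within 2-fold, with signals from 5239.5 to 38923.3. None of 5 leukocyte markers reached the floor, nor did the fibroblast markers DCN, LUM, COL1A2 and COL3A1, whereas COL1A1 was 2.26-fold higher with gefitinib and the endothelial protein VWF at least 4.96-fold higher. Of the other endothelial markers PECAM1 went from 128.4 to 78.0, at least 1.28-fold lower, while CDH5 and KDR were under the floor. Their part in the results was not tested.

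After gefitinib, the AP-1 family was lower at 5 genes and higher at 2. FOS, FOSB, FOSL1, JUN and MAFF were at least 2-fold lower, FOSL2 and JDP2 were at least 2-fold higher, and JUNB and JUND were within 2-fold. BATF was below the floor on both arrays, which left 9 measured members. Among all measured genes 6.20% were at least 2-fold lower and 13.3% at least 2-fold higher. These shares stand beside the 5 and 2 of 9 only for reference, since the same ratios guided the choice of members. By probe set, 19 of the 22 were measured, 7 of them at least 2-fold lower and 4 at least 2-fold higher, against 7.26% and 12.1% of all measured probe sets. Members with more than 1 measured probe set were FOSL2, JUN, JUND and MAFF. In each of these 4 genes all measured probe sets went in 1 direction, some by little. The share of all genes with such agreement was not computed, so this only describes the members.

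**Figure D1:**
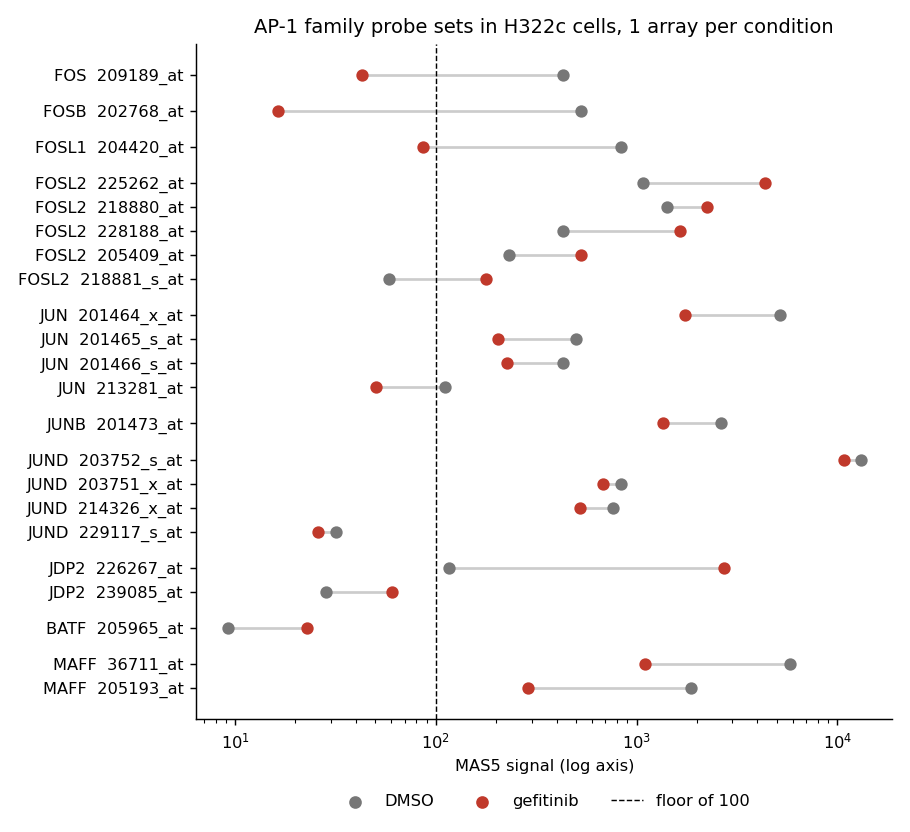
MAS5 signal (horizontal log axis) of the 22 probe sets of the 10 AP-1 family genes with gefitinib (red) and with DMSO (grey), each from 1 array, with the floor of 100 dashed. The red points of FOS, FOSB and FOSL1 lie left of the floor, all 5 FOSL2 probe sets have the red point on the right, and JDP2 226267_at runs from 116.8 to 2721.9.

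The Fos family split, with FOS, FOSB and FOSL1 on 1 side and FOSL2 on the other. FOSL1, which encodes FRA-1, went from a signal of 838.6 on the DMSO array to 86.3 on the gefitinib array at its only probe set, 204420_at. It was at least 8.39-fold lower. FOSB had 526.3 with DMSO and 16.4 with gefitinib at 202768_at, at least 5.26-fold lower. FOS, the founding member, had 429.9 and 42.9 at 209189_at, at least 4.30-fold lower. All 3 genes were above the floor with DMSO and under it with gefitinib, so the order of their bounds follows the DMSO signal and does not order the decreases. Each rests on a single probe set. For reference, 0.998% of all measured genes were at least 4-fold lower, a share beside members chosen with their ratios known.

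FOSL2, which encodes FRA-2, was higher at each of its 5 probe sets. The brightest, 225262_at, read 1071.8 in the DMSO culture against 4344.3 in the treated one, 4.05-fold higher (log2 ratio 2.02), and 228188_at had 430.6 and 1652.3, 3.84-fold higher. At 205409_at the signal went from 232.6 to 527.0, 2.27-fold higher. A smaller ratio was read at 218880_at, with 1425.1 in the control and 2238.4 in treated cells, 1.57-fold higher. The last probe set, 218881_s_at, had 58.7 and 178.6, at least 1.79-fold higher, a bound that does not order it against the others. The direction was thus shared, while the size ranged from 1.57-fold to 4.05-fold over the 4 probe sets with both signals above the floor. The mean log2 ratio over the 5 probe sets, which includes the bound of 218881_s_at, was 1.33 (SD 0.63 between probe sets). At least 4-fold higher were 2.25% of all measured genes, a share given only for reference beside a member chosen with its ratio known. With spike-in scaling the fold of FOSL2 was 3.55, short of 4-fold.

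The Jun family, the obligate partners of the Fos proteins, was lower at each measured probe set. The JUN signal at 201464_x_at was 5208.0 in the control and 1739.1 in treated cells, a 2.99-fold lower value (log2 ratio -1.58). The suffix of this probe set marks oligonucleotides that can match other transcripts, and without such probe sets JUN is read from 201465_s_at, with 498.0 and 203.6, 2.45-fold lower. At 201466_s_at JUN was 1.91-fold lower, from 430.5 to 225.3, and at 213281_at, with 110.6 and 50.3, at least 1.11-fold lower. The mean log2 ratio over the 4 JUN probe sets was -0.99, just inside 2-fold, and it includes the bound of 213281_at. JUNB, which antagonizes JUN at some promoters, had 2635.6 with DMSO and 1361.3 with gefitinib at its only probe set, 201473_at. It was 1.94-fold lower (log2 ratio -0.95), and 2.21-fold lower with spike-in scaling, which puts it past the threshold. JUND, which is known to be held at a steady level in many cells, had 13084.2 and 10776.4 at 203752_s_at. This was 1.21-fold lower (log2 ratio -0.28), with log2 ratios of -0.31 at 203751_x_at and -0.55 at 214326_x_at. The log2 ratio of JUND at 203752_s_at was smaller in size than the SD of 0.54 between probe sets of a gene, whereas those of JUNB and of JUN at 201464_x_at were larger. The fourth JUND probe set, 229117_s_at, reached the floor on neither array.

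JDP2, the repressor that pairs with Jun proteins, was barely above the floor in the control, at 116.8, and reached 2721.9 in treated cells at 226267_at, 23.3-fold higher (log2 ratio 4.54). With a floor of 200 the ratio becomes a bound of 3.77 on the log2 scale. The second JDP2 probe set, 239085_at, had 28.3 with DMSO and 60.2 with gefitinib, under the floor on both arrays, so the ratio of JDP2 rests on 1 probe set. BATF read 9.2 in the control and 22.8 in treated cells at 205965_at and was not measured. MAFF was lower at both of its probe sets: 36711_at went from 5798.0 to 1096.8, which is 5.29-fold lower (log2 ratio -2.40), and 205193_at had 1865.4 and 287.5, 6.49-fold lower. MAFF was the lowest member with both signals above the floor, at rank 46 from the bottom of the 10190 such genes.

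**Figure D2:**
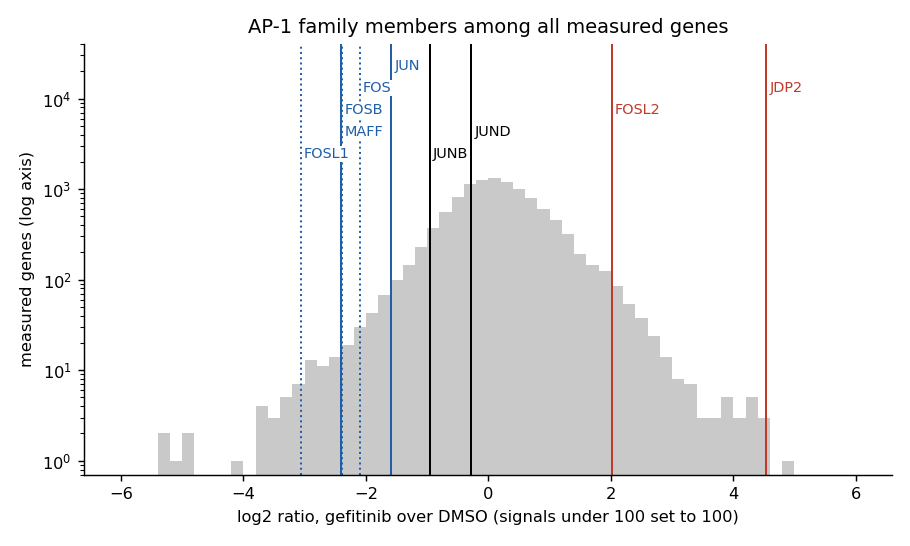
Number of measured genes (vertical log axis) by log2 ratio of gefitinib over DMSO (horizontal axis) for all 11223 measured genes, with a line for each of the 9 measured AP-1 family members; blue is at least 2-fold lower, red at least 2-fold higher, black within 2-fold, and dotted lines are bounds. FOSL1, MAFF, FOSB and FOS lie in the left tail, JDP2 at 4.54 in the right tail.

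The genes most like JDP2 and MAFF in log2 ratio, over the 2 arrays and among genes with both signals above the floor, were those next to them in order. Below JDP2, which was first among these genes, came MYCL with a log2 ratio of 4.48 and CYBRD1 with 4.43. With bounds included, JDP2 was at rank 3 from the top of all measured genes. Around MAFF at -2.40 stood SPRR1A (-2.39) and OLMALINC (-2.38) on the higher side and WDR4 (-2.41) and EMP3 (-2.42) on the lower side. These neighbours differ by far less than the SD between probe sets of a gene, so their order carries no weight. SPRR1A, a cornified envelope precursor of squamous epithelium, is also 1 of the AP-1 target genes described below.

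**Figure D3:**
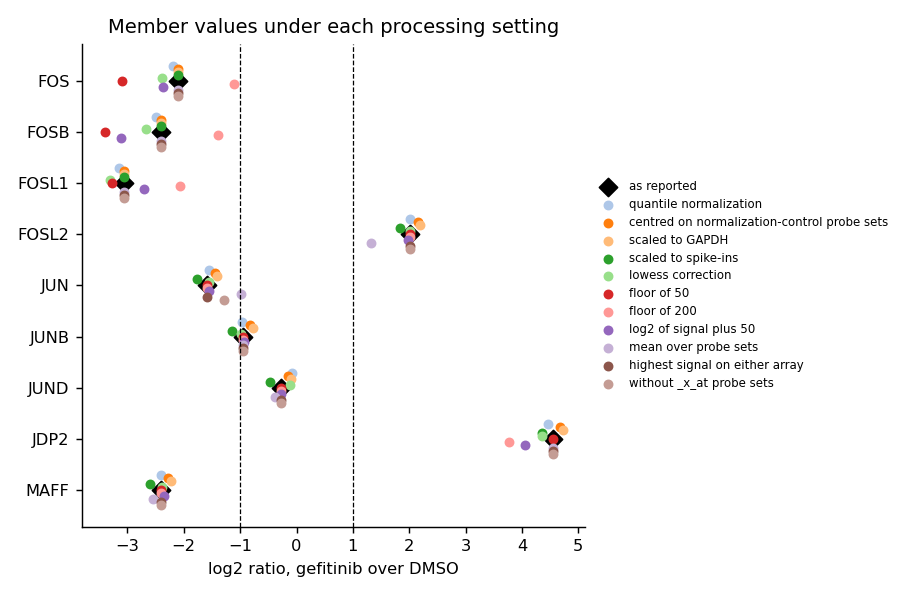
Log2 ratio of gefitinib over DMSO (horizontal axis) for each of the 9 measured AP-1 family members as reported (black diamonds) and under 11 alternative settings (coloured points), with 2-fold dashed. Each member kept its sign, the JUN value with the mean over probe sets (-0.99) fell inside 2-fold, and the bounds of FOS and FOSB moved with the floor.

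The scaling of the arrays changed no member's direction. Spike-ins, GAPDH and the normalization controls differed between the arrays by log2 ratios of 0.19, -0.18 and -0.13. These are smaller in size than the log2 ratio of any member, so scaling to them could not change a sign. Over the deposited scaling and 5 others, the fold of JDP2 ran from 20.3 to 26.3, that of FOSL2 from 3.55 to 4.58, that of MAFF from 4.68 to 6.03 and that of JUN from 2.65 to 3.41. The bounds of FOSL1 ran from 8.39 to 9.86. JUND, lower by 1.06-fold to 1.38-fold, stayed inside 2-fold, and JUNB ran from 1.71 to 2.21.

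Transcripts that textbooks name as AP-1 targets were mostly lower or within 2-fold. Of 28 such genes, 18 were measured, 9 were at least 2-fold lower, 1 was higher and 8 were within 2-fold, with a median log2 ratio of -1.08, against 0.12 over all measured genes. Among all measured genes 6.20% were at least 2-fold lower and 13.3% higher. These shares and the median of 0.12 stand only for reference, since the list was drawn up with earlier results of these data known. The 9 lower genes became 7 with GAPDH scaling, where TIMP1 and ITGB4 came inside 2-fold. They also became 7 with a floor of 200, where the bounds of MMP1 and HBEGF no longer reached 2-fold. With quantile normalization, spike-in scaling or lowess correction they became 10, since CXCL8, 1.99-fold lower as reported, passed 2-fold. The highest signal on either array also gave 10, with EZR past 2-fold. The mean over probe sets kept 9, with EZR past 2-fold and ITGB4 inside it. With a floor of 50 the median was -0.56. The urokinase receptor PLAUR went from 3656.0 to 390.3, 9.37-fold lower, and the cytokine LIF had 2257.0 and 265.9, 8.49-fold lower. These values, and that of HBEGF, were already known when the list was drawn up. The cornified envelope precursor SPRR1A went from 4751.8 to 904.4, 5.25-fold lower, and SPRR1B from 12061.4 to 3193.9, 3.78-fold lower. The remaining genes past 2-fold on this side, named after their values were seen, were the collagenase MMP1 (at least 3.35-fold lower), urokinase PLAU (3.16-fold), the EGFR ligand HBEGF (2.77-fold), the metalloproteinase inhibitor TIMP1 (2.25-fold) and the integrin ITGB4 (2.25-fold). The other measured ITGB4 probe set had a log2 ratio of -0.42, and the mean over both was -0.79, inside 2-fold. That of HBEGF had -0.99, also inside 2-fold. EZR, VEGFA and GCLC, within 2-fold at the brightest probe set, had lowest log2 ratios of -1.62, -1.38 and -1.06. Above 0 were 2 of 4 measured probe sets of VEGFA, 2 of 3 of GCLC and 0 of 4 of EZR. MMP10, a stromelysin, was the exception, with 231.2 and 711.4, 3.08-fold higher at its only probe set. Not every proteinase or squamous gene could be read, since MMP3, MMP13, IL6, CCL2, IVL, CD44, FLG, TGM1 and IL11 were below the floor on both arrays, and LOR was not analysed here.

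**Figure D4:**
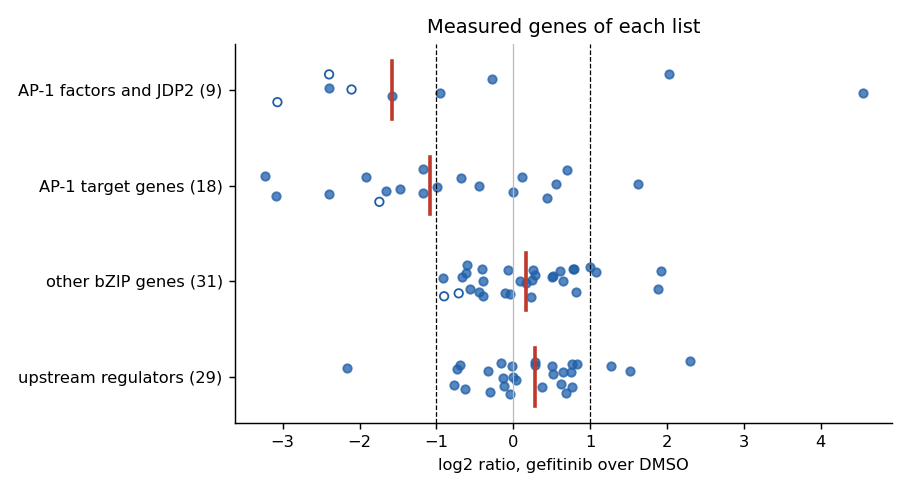
Log2 ratio of gefitinib over DMSO (horizontal axis) for the measured genes of 4 lists, the count of measured genes given beside each name; open points are bounds, red bars are list medians and dashed lines mark 2-fold. The medians are -1.58 for the AP-1 factors and JDP2, -1.08 for the AP-1 target genes, 0.17 for the other bZIP genes and 0.29 for the upstream regulators.

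The bZIP factors outside the AP-1 group were mostly within 2-fold. Of 42 such genes, 31 were measured, 25 were within 2-fold, 4 were higher and 0 were shown to be at least 2-fold lower, with a median log2 ratio of 0.17. The other 2 had only bounds under 2-fold: CREB5, a factor that binds the cyclic AMP response element, had 186.6 and 24.2, at least 1.87-fold lower, and the retinal factor NRL had 163.6 and 99.3, at least 1.64-fold lower. The 4 higher genes were 12.9% of those measured, close to the 13.3% of all measured genes, and 6.20% of all genes were lower, so these counts are no result about the list. NFE2L3, a partner of small Maf proteins, read 115.5 in the control and 437.9 in treated cells, 3.79-fold higher, and CEBPA, a factor of epithelial and myeloid differentiation, had 363.6 and 1341.9, 3.69-fold higher. The ER stress factor ATF6B was 2.11-fold higher and CREB1, which binds the cyclic AMP response element, 2.00-fold higher, but their other probe sets went down to log2 ratios of -0.47 and -0.42. The brightest probe sets of the small Maf MAFG were 1.54-fold lower and of ATF3, a stress-induced factor that pairs with JUN, 1.52-fold lower, with a lowest log2 ratio of -1.04 among the 3 ATF3 probe sets. CREB3L2, a factor of the ER membrane, was 1.18-fold higher at its brightest probe set but had a log2 ratio of -3.27 at the other measured one. CREB5, NRL, MAFG, ATF3 and CREB3L2 were named after their values were seen.

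Regulators that act on FOS and JUN genes or proteins also lay mostly within 2-fold, with 25 of 29 measured genes there, 3 higher and 1 lower out of 33 in the list. The shares of 10.3% higher and 3.45% lower lay near the 13.3% and 6.20% of all measured genes and are no result about the list. RPS6KA5, the nuclear kinase MSK1, which phosphorylates CREB and histone H3 at immediate early genes, read 142.6 in the control and 702.6 in treated cells, 4.93-fold higher, and both of its measured probe sets were higher. MRTFB, a coactivator of serum response factor, was 2.86-fold higher at its brightest probe set. Its other measured probe set was lower, with a bound of -0.32 on the log2 scale. The acetyltransferase CREBBP was 2.40-fold higher at its brightest probe set. Its other measured probe sets include a bound, and the lowest of them had 0.01 on the log2 scale. ITCH, a ubiquitin ligase that marks JUN proteins for degradation, had 3301.1 and 736.0, 4.49-fold lower at its brightest probe set, and its 6 probe sets were lower, with log2 ratios from -2.17 to -0.20. The median log2 ratio of the list was 0.29.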

How the data were processed

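RNA of 1 DMSO culture and 1 gefitinib culture was measured on 1 array each, and samples were grouped by their treatment labels. The authors deposited signal intensities on a linear scale, per the labels made with MAS5 (no version was stated). This program corrects for background and mismatch probes and rescales whole arrays to a common mean, which hides any change common to most transcripts. Of 54675 probe sets, 41097 had a single gene, 1801 several and 11777 none listed, and symbols were updated through gene identifiers (41043 matched). A floor of 100 was set, gefitinib was compared with DMSO as a log2 ratio, and 2-fold was the threshold. The members and lists were chosen with earlier results of these data known. Of the AP-1 targets first listed, 1 is not reported here. Named were all members, the genes of each list past 2-fold up to 4 in each direction, and the 2 nearest genes on each side of JDP2 and of the lowest member measured on both arrays. FOSL1 has the lowest bound, so MAFF took that place. The alternatives were 5 scalings (quantile normalization, centring on 100 normalization-control probe sets, the 3' GAPDH probe set, spike-ins, lowess with span 0.3), floors of 50 and 200, a pseudocount of 50 in place of the floor, averaging the probe sets of a gene, choosing the probe set by its maximum signal, dropping _x_at probe sets, and a fold of 1.5 or 3. The procedure was tested on simulated data. Values were computed in Python 3.11.15 with pandas 2.3.3 and numpy 2.4.6, lowess fits came from statsmodels 0.14.6, trimmed means from scipy 1.17.1 and plots from matplotlib 3.10.9.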

Additional observations from a re-analysis of the deposited data

How the results depend on the processing

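No paired analysis was possible because there was 1 array per condition. Over 11 settings the 9 measured members kept their direction, and the counts of 2 higher and 5 lower members stayed at 2 and ran from 4 to 6, fold thresholds of 1.5 and 3 included. Where a signal was under the floor, the ratio is set by the floor itself. With a floor of 50 the log2 ratio of FOS was -3.10 and that of FOSB -3.40, and with a floor of 200 those of FOS, FOSB, FOSL1 and JDP2 were -1.10, -1.40, -2.07 and 3.77. With log2 of the signal plus 50, FOSB was at -3.12. With the mean over probe sets FOSL2 was at 1.33 and JUN at -0.99. Of the AP-1 targets, 2 were higher at a fold of 1.5. Of the other bZIP genes, 2 were higher with quantile normalization, spike-in scaling, lowess correction, the mean over probe sets or a fold of 3, and 9 at a fold of 1.5. The number of these genes that were lower, 0 as reported, was 1 with quantile normalization, spike-in scaling, lowess correction, a floor of 50, log2 of the signal plus 50 or the mean over probe sets, and 6 at a fold of 1.5. Of the upstream regulators, 1 was higher with the mean over probe sets or a fold of 3 and 10 at a fold of 1.5, and 2 were lower with the highest signal on either array and 5 at a fold of 1.5. Apart from the effects of the floor and the fold threshold, the cause of these moves was not tested. FOS, FOSB, FOSL1, JUNB and JDP2 each rest on 1 measured probe set, and the number of arrays limits every value.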

Other observations

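FOS, JDP2 and BATF follow each other on chromosome 14, with no other protein-coding gene of the RefSeq annotation between them. On these arrays FOS was at least 4.30-fold lower with gefitinib, JDP2 was 23.3-fold higher and BATF was below the floor. Of the 5 protein-coding genes on each side of this group, 9 of 10 were measured. In 7 of these both signals were above the floor, and 6 of the 7 were within 2-fold. Log2 ratios over the 7 ran from -1.12 for ACYP1 to 0.78 for NEK9. Most measured genes were within 2-fold too, with 13.3% at least 2-fold higher and 6.20% lower, so this count is no result about the region. TMED10, the gene next to FOS, went from 11295.5 to 13796.3, 1.22-fold higher. FLVCR2, the gene next to BATF, had 5.9 and 105.1, at least 1.05-fold higher, and TGFB3 had 96.7 and 170.8, at least 1.71-fold higher. Both are bounds. These genes were chosen after the values of the members had been seen.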
